A study of Homo sapiens with 4 samples.

Results

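The p53 pathway genes examined here are 31 named members: genes that the transcription factor p53 is known to switch on, together with proteins that control p53. They were taken by gene symbol through the platform's probe annotation and sorted by role into 6 feedback and control genes, 9 genes of growth arrest, 10 of apoptosis, 2 of DNA repair, 3 of metabolism and 1 gene of an RNA-binding protein. Of the 31, 29 had a named probe and 26 were above background, which means detected with p under 0.01 on 2 or more arrays. These 26 were tested among 13786 features, 10673 of them named genes. MDM4, PLK3 and FAS had probes that did not reach that level, and BTG2 and FDXR are not analysed here.

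The data are 4 bead arrays of a human prostate cancer line that the labels spell DU154, 2 of the wild type and 2 of cells named mH2A1.2_KO, in which macroH2A1.2 was depleted. MacroH2A1.2 is made by alternative splicing from the gene of the histone variant macroH2A1. The labels give neither the way the depletion was made, nor treatment, time in culture or number of clones. Whether the line is the widely used DU145 cannot be told from them. Separate cultures are not mentioned, so p-values measure the spread between arrays only, and that spread may be technical.

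p53 is held at a low level by MDM2, which tags it for destruction, and is released from MDM2 when DNA is damaged or growth signals are abnormal. It then binds paired copies of a short palindromic half-site and switches on genes that stop the cell cycle, repair DNA, adjust metabolism or start apoptosis. Several of its targets, MDM2 first among them, act back on p53 and shut the response off. Many of the same genes also answer other signals, so their RNA is no direct measure of p53 activity.

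The depositors' raw and normalized tables disagree on which array is wild type replicate 2 and which is mH2A1.2_KO replicate 1, and groups here follow the normalized table. The brightest probe of MACROH2A1, the gene of the depleted variant, was 1.07 ± 0.16 (SE, n = 2 arrays per group) lower on the log2 scale in mH2A1.2_KO under that grouping (difference -1.07), and the difference was -0.13 when arrays were grouped by the raw header. It passed the test without wild type replicate 2 (-1.12, limma adjusted p = 0.0367) but not with all arrays (adjusted p = 0.251). The other 2 detected probes of that gene differed by -1.02 ± 0.17 and, in the opposite direction, by 0.62 ± 0.24, and the mean of its detected probes differed by -0.49. MACROH2A2, which encodes the related variant macroH2A2, had log2 values of 10.90 and 10.82 for wild type, then 10.16 and 10.40 for mH2A1.2_KO, without overlap and with a difference of -0.58 ± 0.17 (limma adjusted p = 0.493). Wild type replicate 1 and mH2A1.2_KO replicate 2 are placed alike by both tables, and the difference between that pair is given below for the genes the results turn on. Under the grouping used, arrays correlated at 0.975 within wild type, 0.987 within mH2A1.2_KO and 0.973 to 0.987 between groups. Between 35.4% and 38.9% of probes were above background on the 4 arrays. Of 8 prostate epithelial markers 4 were detected (KRT8, KRT18, EPCAM and CDH1), all with a higher mean in mH2A1.2_KO, and their summed level was 11.68 and 11.59 in wild type, and in mH2A1.2_KO it was 12.73 and 12.46 on the log2 scale. KRT8, a keratin of simple epithelia, differed by 1.68 ± 0.18 and CDH1, the adhesion protein E-cadherin, by 0.65 ± 0.23. KLK3 and TMPRSS2, prostate luminal genes, were not above background. In bulk RNA fewer cells of a type and less RNA per cell cannot be told apart, and the part of this marker difference in the results below was not tested. Of 5 lymphocyte and 4 endothelial markers none was detected, of 6 fibroblast markers only COL1A1 was, and of 6 macrophage and osteoclast markers CD68, CD14 and CTSK were. The summed level of those 3 was 10.78 and 10.54 in wild type, and in mH2A1.2_KO it was 10.89 and 10.85.

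The pathway did not move as a block. Of the 26 tested members 11 had a higher mean in mH2A1.2_KO and 15 a lower one, with a median log2 difference of -0.04, beside 48% higher and a median of -0.01 over all features. No member passed the test: limma called 0 of 26 at an adjusted p under 0.05, as it called 0% of all features (1065 had an unadjusted p under 0.05), and the lowest adjusted p among members was 0.36. At an unadjusted p under 0.05, 4 of 26 members (15.4%) stood out, 2 higher and 2 lower, where 7.73% of all features did, 4.37% higher and 3.35% lower. The 4 were CDKN1A and MDM2, lower in mH2A1.2_KO, and PLK2 and PHLDA3, higher. MDM2 is among them only because it was detected in wild type alone, and over genes detected on all 4 arrays the count was 3 of 24 beside 8.01% of features. Without wild type replicate 1 it was 7 of 26, beside 10.8% of features. The 0 calls over all features became 57 without wild type replicate 1 and 156 without wild type replicate 2.

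**Figure D1:**
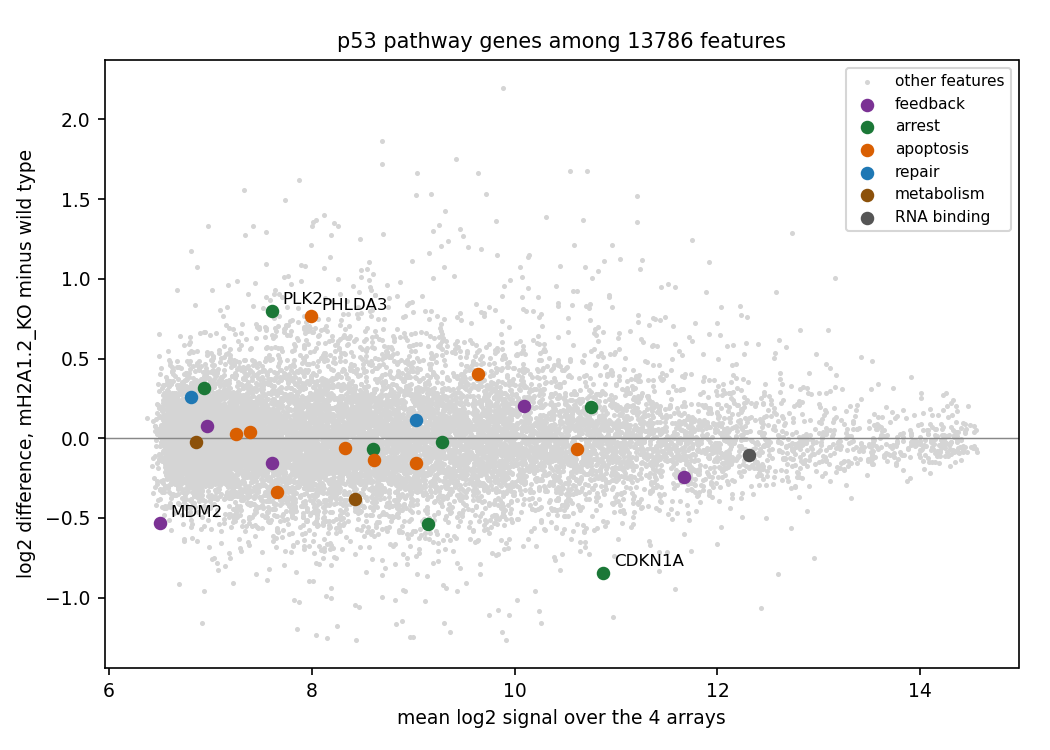
Log2 difference (mH2A1.2_KO minus wild type, vertical axis) against the mean log2 signal over the 4 arrays for every tested feature (grey) and for the 26 p53 pathway members (coloured by role). CDKN1A and MDM2 lie at -0.84 and -0.53, PLK2 and PHLDA3 at 0.80 and 0.77, and the other 22 members lie between -0.54 and 0.40.

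CDKN1A encodes p21, the inhibitor of cyclin-dependent kinases that carries out much of the arrest ordered by p53. Its log2 signal was 11.28 and 11.31 in wild type, and in mH2A1.2_KO it was 10.32 and 10.59. Both mH2A1.2_KO arrays were below both wild type arrays, and the gap between the groups was wider than the gap between replicates. The difference was -0.84 ± 0.17 (SE, n = 2 arrays per group; 95% interval -1.26 to -0.43), or 1.79-fold, with a limma adjusted p of 0.36. It ran from -0.98 to -0.71 when an array was left out and was -0.69 between the arrays placed alike. When arrays were grouped by the raw header it was 0.15, in the other direction. The second probe of CDKN1A was above background on none of the arrays.

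MDM2 is the ubiquitin ligase that marks p53 for degradation and is itself a p53 target. It was near the detection limit, with 6.72 and 6.81 in wild type, where it was above background on both arrays, and 6.32 and 6.15 in mH2A1.2_KO, where it was above background on neither. With the lowest detected signal of each mH2A1.2_KO array in place of its own, MDM2 was 1.26-fold lower there. That value is not a bound, because probes not above background can measure higher. PLK3, above background on no array, measured 6.72 on mH2A1.2_KO replicate 2. The 1.26-fold value holds for these normalized values only and carries no standard error. MDM2 did not pass the test (limma adjusted p = 0.501). MDM2 entered the test only through its detection in wild type, so its direction was fixed by the detection filter. The measured difference was -0.53 ± 0.16 and became -0.87 when the raw signals were background-corrected with limma's neqc and -0.26 when they were only quantile-normalized. It was -0.57 between the arrays placed alike and 0.09 by the raw header.

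PLK2, a Polo-like kinase induced by stress and active in centriole duplication, measured 6.97 and 7.45 in wild type, and in mH2A1.2_KO it was 7.94 and 8.09. The groups did not overlap, although the wild type arrays differed from each other by 0.48. The difference was 0.80 ± 0.21 (95% interval 0.29 to 1.31), or 1.74-fold, with a limma adjusted p of 0.465. Without wild type replicate 2 it was 1.04 and passed the test (limma adjusted p = 0.0448), with neqc it was 1.27, and without wild type replicate 1 it was 0.56. Between the arrays placed alike it was 1.12, and under the raw header's grouping 0.53, in the same direction.

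PHLDA3 encodes a small protein that competes with the survival kinase AKT for membrane lipids and so favours apoptosis. It measured 7.71 and 7.50 in wild type, and in mH2A1.2_KO it was 8.42 and 8.32. Each group was tight and the groups did not overlap. The difference was 0.77 ± 0.17 (95% interval 0.36 to 1.17), or 1.70-fold, with a limma adjusted p of 0.386. It ran from 0.66 to 0.87 when an array was left out and was 0.61 between the arrays placed alike, while the raw header's grouping gave -0.21.

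**Figure D2:**
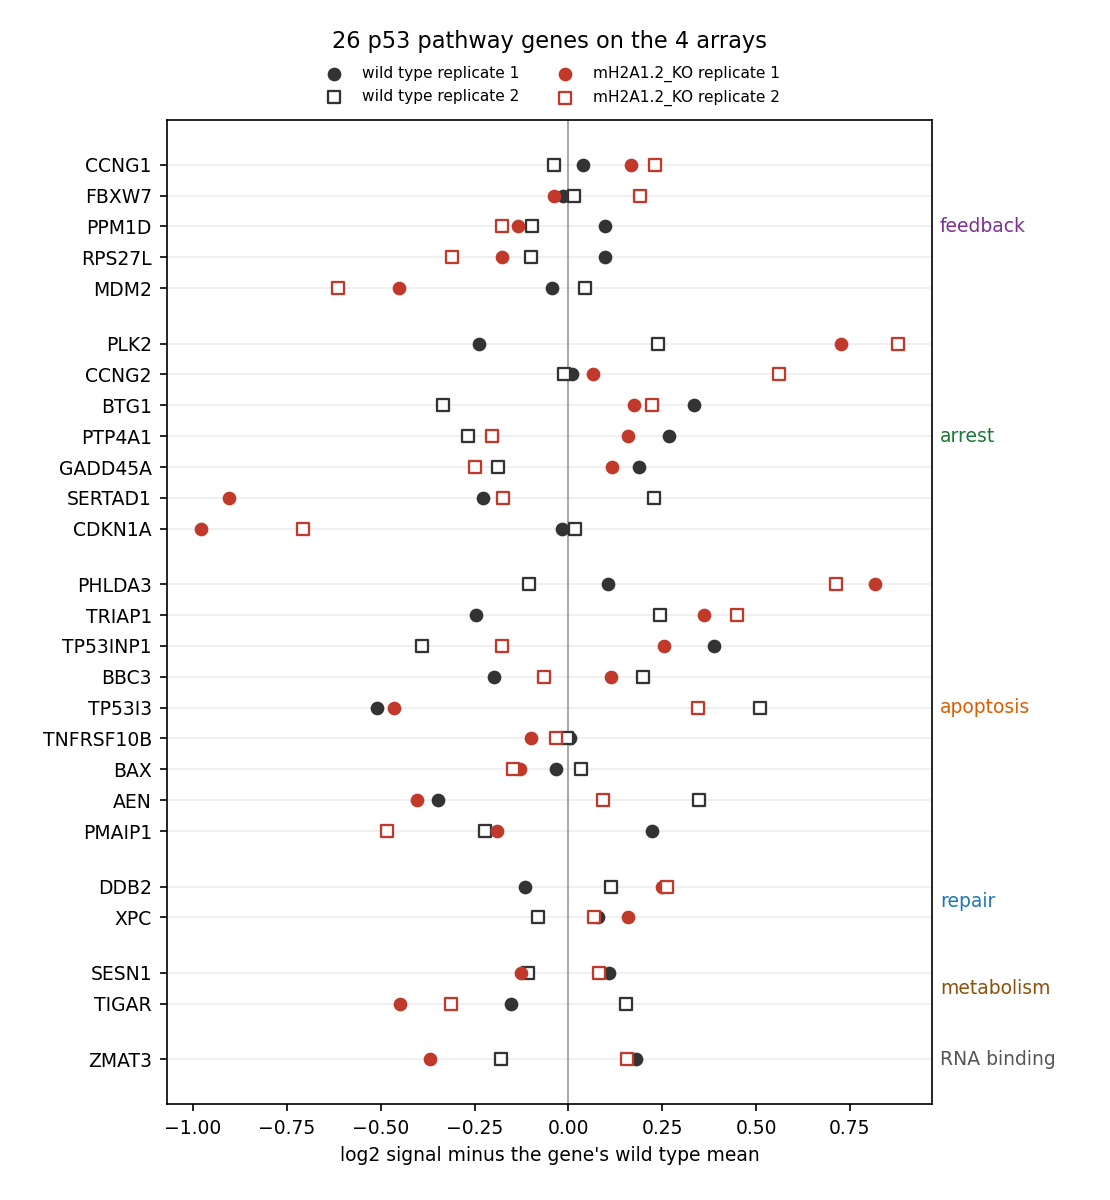
Log2 signal of each of the 26 tested members on each array, minus that gene's wild type mean (horizontal axis), in rows grouped by role. Black marks are wild type and red marks mH2A1.2_KO, with filled circles for replicate 1 and open squares for replicate 2. The red marks of CDKN1A and MDM2 lie left of both black marks and those of PLK2 and PHLDA3 right of them, while in rows such as TP53I3, AEN and TP53INP1 the marks sort by replicate number.

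The promoters of CDKN1A, MDM2 and PLK2 are shown, with that of AEN. The AEN sequence holds a p53 half-site pair, but the gene's brightest probe overlapped between the groups. RefSeq promoter windows (GRCh38.p14) were matched by symbol for 27 of the 31 members, PHLDA3 not among them, and cut to the 250 bases before the start site. Capitals mark the closest match to 2 tandem p53 half-sites, allowing 0 to 13 bases between them and at most 2 mismatches in all, or, where no such pair was found, an exact single half-site. The half-site is palindromic, so a scan of 1 strand covers both, and matches may overlap other motifs.
MDM2, chr12:68808767-68809016, plus strand: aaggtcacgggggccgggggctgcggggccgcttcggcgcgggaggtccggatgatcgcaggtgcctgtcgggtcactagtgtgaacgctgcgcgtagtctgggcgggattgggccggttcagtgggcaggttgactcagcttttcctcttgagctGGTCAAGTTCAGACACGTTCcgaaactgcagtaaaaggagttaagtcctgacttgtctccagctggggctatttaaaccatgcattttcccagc
CDKN1A, chr6:36678464-36678713, plus strand: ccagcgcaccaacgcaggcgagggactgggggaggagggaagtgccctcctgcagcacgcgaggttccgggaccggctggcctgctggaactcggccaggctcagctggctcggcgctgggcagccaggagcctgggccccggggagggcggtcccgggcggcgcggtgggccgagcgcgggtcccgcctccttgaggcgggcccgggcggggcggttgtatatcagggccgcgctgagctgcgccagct
PLK2, chr5:58460087-58460336, minus strand: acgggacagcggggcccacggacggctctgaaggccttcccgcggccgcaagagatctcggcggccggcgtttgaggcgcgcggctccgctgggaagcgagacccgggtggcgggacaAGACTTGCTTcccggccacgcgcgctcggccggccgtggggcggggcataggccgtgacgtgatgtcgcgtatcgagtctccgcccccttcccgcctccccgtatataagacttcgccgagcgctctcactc
AEN, chr15:88621090-88621339, plus strand: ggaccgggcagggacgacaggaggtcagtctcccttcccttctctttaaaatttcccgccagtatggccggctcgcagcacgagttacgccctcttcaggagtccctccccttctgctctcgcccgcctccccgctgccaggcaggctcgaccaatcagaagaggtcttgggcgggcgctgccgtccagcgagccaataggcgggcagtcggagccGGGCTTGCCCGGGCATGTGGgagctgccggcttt

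The MDM2 window shown lies before a downstream start site of the gene, and its half-site pair begins at position -94 from that start with 0 bases between the half-sites and 2 mismatches in all. The AEN pair begins at position -34 from the start and also has 2 mismatches. In PLK2 a single exact half-site begins at position -132. The 250 bases before CDKN1A hold no match by these criteria, and the p53 sites known for that gene lie farther upstream than this window reaches. A half-site pair was found in a window of 7 of the 27 matched members, or 25.9%, beside 8.12% of all 27305 genes with a window. An exact half-site was found in 6 members (22.2%), beside 6.8% of all genes. These are matches of letters and not measured binding, and the members showing a match did not share a direction.

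The feedback and control genes went both ways. The median log2 difference of the 5 tested was -0.16, with 2 higher and 3 lower, MDM2 among the lower through its detection in wild type alone. Leaving out wild type replicate 1 made that median -0.06 and leaving out replicate 2 made it -0.25. PPM1D, a phosphatase that reverses damage signals to p53, measured 7.79 and 7.59 in wild type, and in mH2A1.2_KO it was 7.56 and 7.51. Its arrays did not overlap, but the gap between the groups was narrower than the wild type replicates' own spread. RPS27L, a ribosomal protein relative that binds MDM2, measured 11.89 and 11.69 against 11.61 and 11.48, a difference of -0.24 ± 0.17. CCNG1, the p53-induced cyclin G1 that brings a phosphatase to MDM2, measured 10.03 and 9.96 against 10.16 and 10.23, a difference of 0.20 ± 0.15. These are small, non-overlapping separations in opposite directions. FBXW7, the part of a ubiquitin ligase that recognises cyclin E and MYC, overlapped between groups (6.91 and 6.94 against 6.89 and 7.12). MDM4, the MDM2 relative that masks p53, was above background on 1 array.

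The arrest genes went both ways. Their 7 tested members had a median of -0.02, the value of PTP4A1, with CDKN1A at one end and PLK2 at the other. SERTAD1, a coregulator that binds CDK4, measured 9.19 and 9.64 in wild type, and in mH2A1.2_KO it was 8.51 and 9.24. The groups overlapped and the mH2A1.2_KO arrays differed from each other by 0.73, so the difference of -0.54 ± 0.29 was within the spread of replicates, and it was 0.05 between the arrays placed alike and ran from -0.90 to -0.17 when an array was left out. CCNG2, an unconventional cyclin linked to arrest, measured 6.79 and 6.77 against 6.84 and 7.34, was above background on 1 of the 2 wild type arrays, and gave 0.31 ± 0.21, or 0.10 by its second probe and 0.66 with neqc. Its mH2A1.2_KO arrays differed by 0.50, and it ran from 0.06 to 0.56 when an array was left out. BTG1, an antiproliferative protein that acts on messenger RNA decay, measured 10.99 and 10.32 in wild type, on either side of its 10.83 and 10.87 in mH2A1.2_KO. GADD45A, a growth arrest protein induced by DNA damage, differed by -0.07 ± 0.21, and its second probe by -0.18. PTP4A1, a phosphatase that promotes growth, differed by -0.02 ± 0.24. By the brightest probes of both genes, replicate 1 was above replicate 2 in each group by more than the groups differed. The second PTP4A1 probe measured 7.46 and 7.39 in wild type, and in mH2A1.2_KO it was 7.38 and 7.41. PLK3, the relative of PLK2, was not above background on any array. The arrest median was 0.25 without wild type replicate 1 and -0.25 without wild type replicate 2.

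The apoptosis genes showed no common direction. PHLDA3 was the only one of 9 tested with an unadjusted limma p under 0.05 (11.1%, beside 7.73% of all features). The median of the 9 was -0.06, with 4 higher and 5 lower, and 0.19 without wild type replicate 2. TRIAP1, a mitochondrial protein that restrains apoptosis, measured 9.19 and 9.68 in wild type, and in mH2A1.2_KO it was 9.80 and 9.88. Its arrays did not overlap, yet the wild type arrays lay farther apart than the groups, and the difference was 0.40 ± 0.21 (limma adjusted p = 0.756), from 0.16 without wild type replicate 1 to 0.65 without wild type replicate 2. PMAIP1, the BH3-only protein NOXA, measured 8.05 and 7.60 against 7.63 and 7.34, overlapping between groups, a difference of -0.34 ± 0.21 that ran from -0.56 to -0.11 when an array was left out. The pore-forming protein BAX differed by -0.14 ± 0.15 and the TRAIL receptor TNFRSF10B by -0.07 ± 0.15. By the brightest probes of those 2 genes the arrays did not overlap, but the separation was below the standard error. By their second kept probes the arrays overlapped, with differences of -0.02 ± 0.19 for BAX and -0.09 ± 0.16 for TNFRSF10B. BBC3, the BH3-only protein PUMA, differed by 0.02 ± 0.20. FAS, the death receptor, was not above background on any array.

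By their brightest probes, TP53I3, AEN and TP53INP1 differed between replicates far more than between groups. TP53I3, a quinone oxidoreductase linked to oxidative stress, measured 7.85 and 8.87 in wild type, and in mH2A1.2_KO it was 7.89 and 8.70. AEN, a nuclease that enhances apoptosis, measured 8.75 and 9.45 against 8.70 and 9.19. TP53INP1, a stress protein that promotes p53 phosphorylation, went the other way with 7.76 and 6.98 against 7.62 and 7.19. In all 3 genes replicate 1 of one group lay beside replicate 1 of the other. The group differences were -0.06 ± 0.40, -0.16 ± 0.29 and 0.04 ± 0.30 in that order, and the interval for TP53I3, from -1.04 to 0.92, holds changes as large as those of CDKN1A and PLK2. The second AEN probe measured 7.86 and 8.36 in wild type, and in mH2A1.2_KO it was 7.62 and 7.81. Those groups did not overlap, and the difference was -0.40 ± 0.21.

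**Figure D3:**
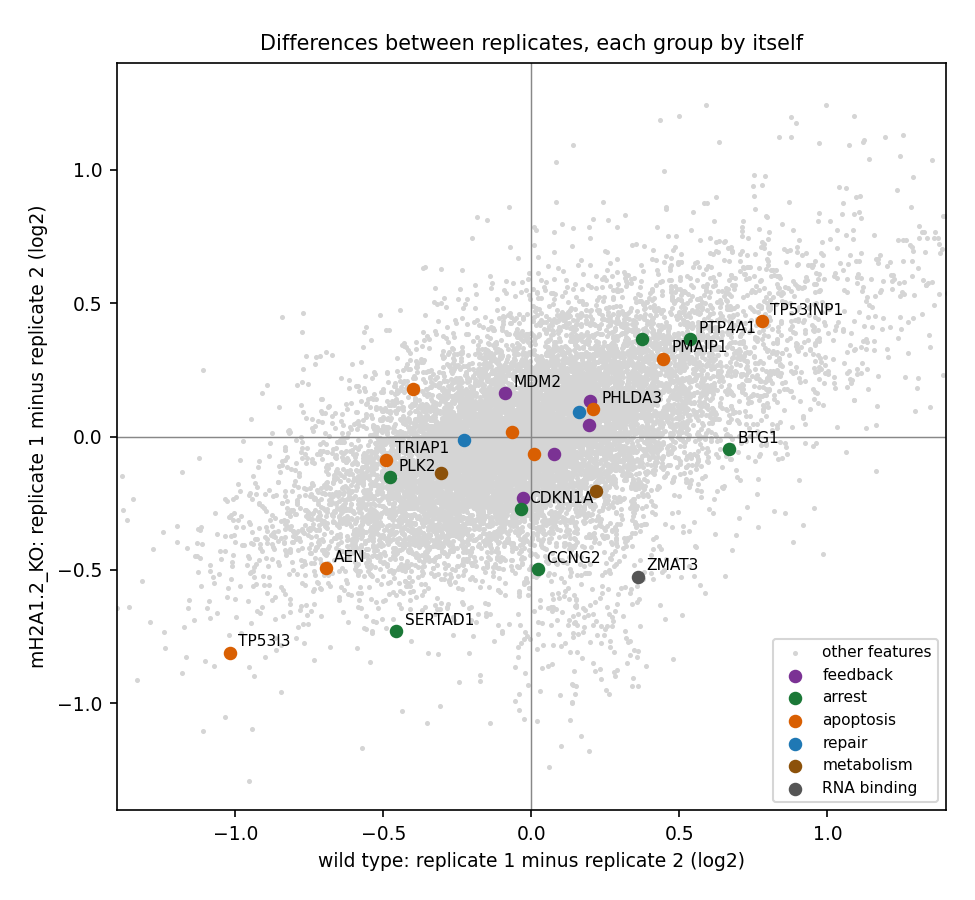
Replicate 1 minus replicate 2 in wild type (horizontal axis) and in mH2A1.2_KO (vertical axis), in log2 units, for the 26 members (coloured by role) and all other features (grey; 64 lie beyond the axes at 1.4). TP53I3 lies at -1.02 and -0.81 and TP53INP1 at 0.78 and 0.43, so that replicate 1 differs from replicate 2 the same way in both groups.

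Replicates differed in the same direction in both groups for 17 of 26 members, or 65.4%, beside 69.2% of all features, so the share among members was near the background. For 8 of 26 members (30.8%) both replicate gaps were larger than the difference between the groups, beside 44.6% of all features. Over the members the median gap between replicates was 0.27 for wild type and 0.17 for mH2A1.2_KO, and the median size of the group difference was 0.18. The corresponding values over all features were 0.24, 0.17 and 0.14. What the replicate numbers stand for is not given in the labels, and its part in these results was not tested.

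The 2 repair genes, which both recognise damaged bases for nucleotide excision repair, had slightly higher means in mH2A1.2_KO. DDB2 measured 6.57 and 6.80 in wild type, and in mH2A1.2_KO it was 6.93 and 6.94, a difference of 0.26 ± 0.17 with no overlap, which became 0.53 with neqc. XPC measured 9.05 and 8.89 against 9.13 and 9.03, a difference of 0.11 ± 0.16 with overlap. Neither stood out from the spread of replicates by limma (adjusted p = 0.853 and 0.975). TIGAR, which diverts sugar from glycolysis and limits oxidants, measured 8.46 and 8.77 in wild type, and in mH2A1.2_KO it was 8.16 and 8.30. Its arrays did not overlap, and the difference of -0.38 ± 0.18 had an interval from -0.82 to 0.06. SESN1, a sestrin that restrains mTORC1, overlapped between the groups with a difference of -0.02 ± 0.17. ZMAT3, an RNA-binding protein induced by p53, measured 12.55 and 12.19 in wild type and 12.53 on the second mH2A1.2_KO array, with the first below both, so that the groups overlapped, and differed by -0.11 ± 0.24.

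**Figure D4:**
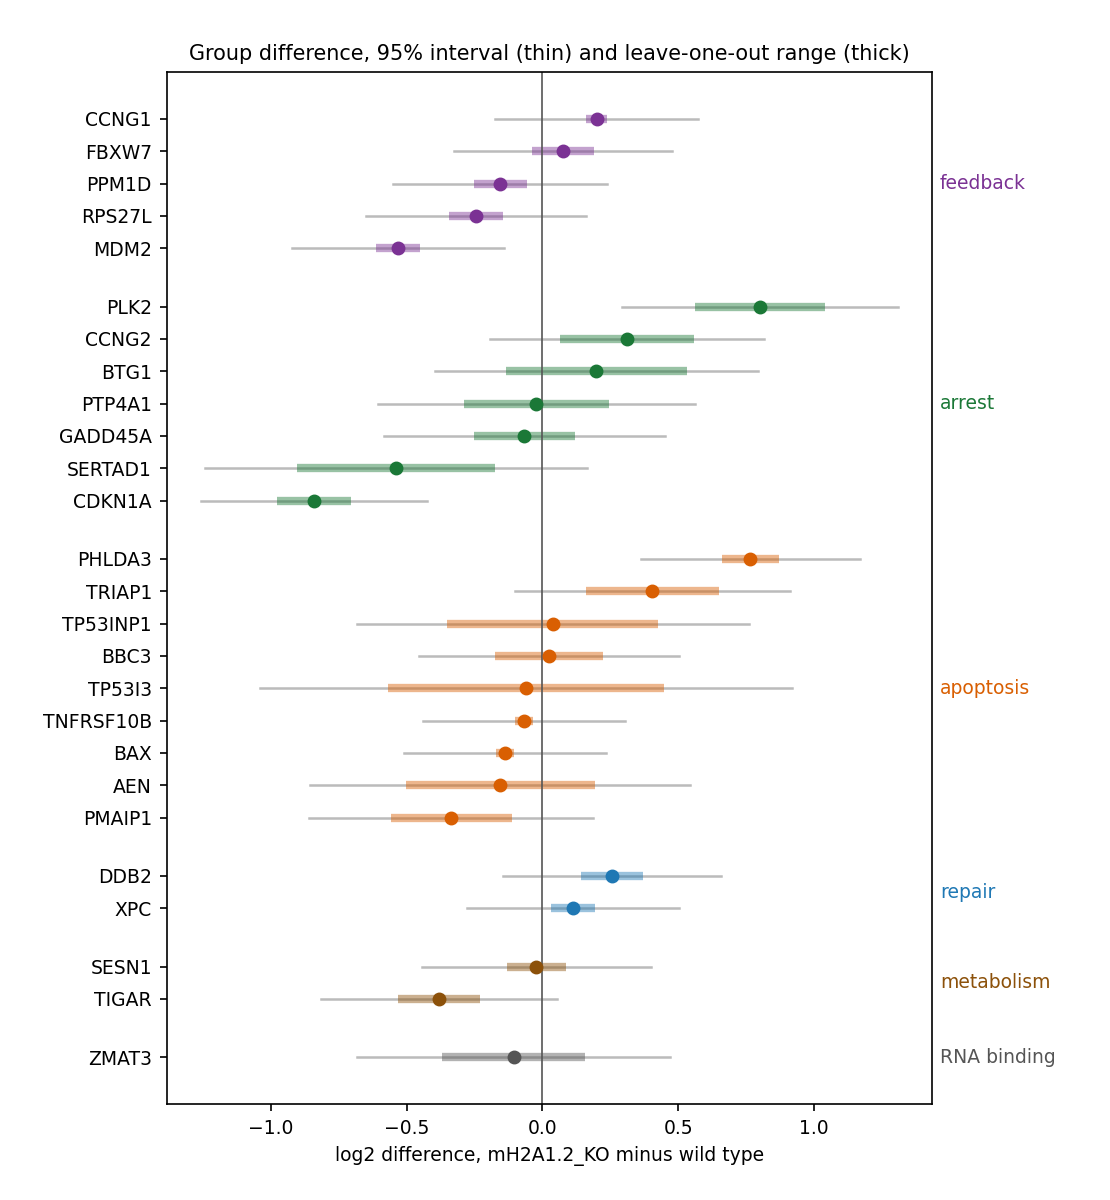
Log2 difference, mH2A1.2_KO minus wild type (horizontal axis), of the 26 members by role. Points are the differences, thin lines their 95% intervals from limma and thick bars the range when each array is left out. The intervals of CDKN1A, MDM2, PLK2 and PHLDA3 lie on one side of 0 and those of the other 22 members include 0. MDM2 entered the test only through its detection in wild type, so its direction was fixed by the detection filter.

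Median differences were -0.16 for feedback, -0.02 for arrest, -0.06 for apoptosis, 0.18 for repair and -0.20 for metabolism, over 5, 7, 9, 2 and 2 tested members. The arrest list holds PTP4A1, which promotes growth, and the apoptosis list TRIAP1, which restrains apoptosis, so these medians mix opposite functions. Arrays did not overlap between groups for 13 of 26 members (50%), 6 higher and 7 lower, beside 35.8% of all features, 17.1% higher and 18.7% lower. With 1 array left in wild type, the count was 21 without replicate 1 and 22 without replicate 2, beside 73.5% and 74.4% of all features. The 13 include MDM2, whose direction was fixed by its detection in wild type alone. Over genes detected on all 4 arrays, 11 of 24 members did not overlap, beside 36.3% of features. By the mean of each gene's detected probes it was 11 of 26, beside 35.9% of features. Counts by role were over the 26 members by their brightest probes on all arrays. Overlap was absent for 4 of 5 feedback genes (MDM2 among them), 3 of 7 arrest genes and 4 of 9 apoptosis genes. It was also absent for 1 of 2 repair genes and 1 of 2 metabolism genes, and differences between roles were not tested.

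Other genes of the pathway were also without a call. Over all features, 7.73% had an unadjusted p under 0.05 and 48% had a higher mean in mH2A1.2_KO, with a median of -0.01. Replicates differed in the same direction in both groups for 69.2% of them. Of 27 regulators of p53, 20 were tested, 13 higher and 7 lower with a median of 0.04, and none had an unadjusted p under 0.05. Of 57 further p53 targets, 42 were tested, 29 higher and 13 lower with a median of 0.10, and 1 (2.38%) was under that level. It was ATF3, a stress-induced transcription factor, which measured 8.34 and 7.84 in wild type, and in mH2A1.2_KO it was 7.49 and 7.28, a difference of -0.70 ± 0.22 (limma adjusted p = 0.506). The groups did not overlap, and the difference was -1.06 between the arrays placed alike and -0.46 without wild type replicate 1. All 15 cell cycle genes that p53 lowers through p21 and the DREAM repressor complex were tested, and 12 had a higher mean in mH2A1.2_KO, with a median of 0.16 and none at an unadjusted p under 0.05. For 13 of those 15 the replicates differed in the same direction in both groups.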

How the data were processed

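RNA was purified on columns and labelled as biotinylated cRNA for Illumina bead arrays, per the labels' protocols. GenomeStudio is the tool given in the submitters' processing notes. The authors deposited raw intensity and a detection p-value for each of 47230 probes. They also deposited normalized values on a log2 scale for 43893 probes, by a method not given in the sources used here. Arrays carry no read depth, and their number (2 per group) limits the precision.

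The normalized values were quantile-normalized over the 4 arrays, and the 16950 probes detected on 2 or more arrays were kept. A gene was read by its kept probe with the highest mean, and 7 tested members had another kept probe. Over bright probes the centred log2 values of each raw array correlated at 0.998 or more with 1 normalized column, and at most at 0.015 with any other. That match crossed the headers of 2 arrays, so detection p-values were assigned by it. The test was limma's moderated one (version 3.58.1 under R 4.3.3; lmFit, then eBayes; two-sided; Benjamini-Hochberg over all 13786 features; threshold 0.05). The fit was tested on simulated data.

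All 31 members are named. Of each other list, genes with an unadjusted p under 0.05 and a difference of at least 0.5 are named. Members and lists were chosen with earlier results of these data known. Alternatives are given in the closing section.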

Additional observations from a re-analysis of the deposited data

How the results depend on the processing

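No member was called by limma at an adjusted p under 0.05 with the values as deposited, neqc on raw signals, raw signals quantile-normalized only, the raw header's grouping, no detection filter, detection on all 4 arrays or the mean of a gene's probes. Features called over all were 2 with no detection filter and 0 to 156 when each array was left out (the lone array of a group is then assumed to vary like the other group). Members called were then 0 to 1. When each array was left out, members at an unadjusted p under 0.05 were 3 to 7, beside 2.78% to 14.7% of all features. Members with no overlap were then 16 to 22 (61.6% to 74.4% of all features). The member median was -0.12 to 0.067 and the arrest median -0.25 to 0.25 in these fits. With the replicate number as a block, limma called 425 features and 3 members, CDKN1A (adjusted p = 0.0165), PLK2 (0.0232) and PHLDA3 (0.0213), and 8 members had an unadjusted p under 0.05, beside 17.4% of all features; ATF3 was called as well (0.0351). The labels do not say that numbers pair arrays; across all features the replicate differences of the groups correlated at 0.575, with only 2 pairs.

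With neqc the repair median was 0.33, and SESN1 differed by 0.018. With raw signals quantile-normalized only, the repair median was 0.14, TP53INP1 was -0.0085 and SESN1 0.0022. With detection on all 4 arrays, where MDM2 leaves, the feedback median was -0.040. Between the arrays placed alike the feedback median was -0.28, the metabolism median -0.094, and 6 members turned: BTG1 to -0.11, SERTAD1 to 0.054, AEN to 0.44, TP53I3 to 0.85, TP53INP1 to -0.57 and XPC to -0.013.

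By the raw header's grouping the medians were 0.062 for members, -0.00096 for feedback, 0.039 for repair and 0.078 for metabolism. The 4 of 26 members at an unadjusted p under 0.05 were then PTP4A1, AEN, TP53I3 and TP53INP1, beside 13.8% of all features. None of them was among the 4 reported. By that header's grouping arrays did not overlap for 9 of 26 members, beside 47.9% of all features. Signs turned for MDM2 (0.093), CCNG1 (-0.00096), CDKN1A (0.15), BTG1 (-0.32), SERTAD1 (0.67), TNFRSF10B (0.032), BAX (0.033), AEN (0.67), TP53I3 (1.12), TP53INP1 (-0.79), PHLDA3 (-0.21), XPC (-0.14), TIGAR (0.27), ZMAT3 (0.090), MACROH2A2 (0.086), KRT8 (-0.25) and CDH1 (-0.44).

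Leaving out an array turned 10 members, with ranges of -0.039 to 0.19 (FBXW7), -0.14 to 0.53 (BTG1), -0.25 to 0.12 (GADD45A), -0.29 to 0.25 (PTP4A1), -0.17 to 0.22 (BBC3), -0.50 to 0.19 (AEN), -0.57 to 0.45 (TP53I3), -0.35 to 0.43 (TP53INP1), -0.13 to 0.087 (SESN1) and -0.37 to 0.16 (ZMAT3). CDKN1A, PLK2 and PHLDA3 kept their direction in every alternative tried, except the raw header's grouping for CDKN1A and PHLDA3. This was not particular to them. Of the 26 tested members, 14 were turned by no alternative other than that grouping. PPM1D, RPS27L, CCNG2, PMAIP1, TRIAP1 and DDB2 were turned by none, that grouping included. MDM2 is among the 14, but its direction follows from its detection in wild type alone.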
